A study of Mus musculus with 4 samples.

Results

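The values of 10 genes of the Notch pathway were followed across bone marrow progenitors that lacked Aspp1, p53 or both: the receptors Notch1, Notch2, Notch3 and Notch4, the ligand Jag1, the DNA-binding factor Rbpj, and the genes Hes1, Hey1, Nrarp and Dtx1, which are known as Notch targets. They were picked out by gene name, and all of their probes were taken, which gave 13 of the 55675 probes, and 10 of the 34826 genes or transcripts, measured on the arrays. The cells were lineage(-) Sca-1(+) cKit(+) marrow cells, called LSK, a sorted fraction that contains blood stem cells and early multipotent progenitors.

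The 4 groups were Aspp1-/-p53-/-, p53-/-, Aspp1-/- and wild type (WT), all from male C57BL/6 mice. Aspp1-/- mice lacked Aspp1, encoded by Ppp1r13b, a protein that binds p53 and favours its pro-apoptotic targets, and in p53-/- mice floxed alleles of p53, encoded by Trp53, were deleted by Mx1-Cre. The interferon-responsive promoter of Mx1-Cre is switched on by the double-stranded RNA analogue pIpC in many cell types and is not confined to blood cells. Aspp1-/-p53-/- mice carried both changes, and Mx1-Cre was present only in the p53-/- and Aspp1-/-p53-/- mice. Every group received pIpC in 5 injections at 8 weeks of age and was sampled 4 weeks later, at 12 weeks. The study's design text gives a dose of 400 μg for all, whereas the sample labels read 403 μg for Aspp1-/-p53-/-, 402 μg for p53-/-, 401 μg for Aspp1-/- and 400 μg for WT. RNA of 3 mice was pooled per group and hybridised to 1 array, so no value below has a spread between replicates.

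Notch receptors are cleaved when they bind a ligand of the Jagged or Delta family on a neighbouring cell, and the freed intracellular part enters the nucleus. There it binds RBPJ and turns on genes such as Hes1 and Hey1, which encode transcriptional repressors, and Nrarp, which encodes a feedback inhibitor of the same complex. In blood, Notch signalling is best known for directing progenitors to the T lineage.

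Each gene was read by 1 or 2 probes of 60 bases, each printed as 1 spot. Of the targets Nrarp, Hey1 and Hes1, the first 2 passed the size rule given below and Hes1 did not. Their probes, and both probes of Notch1, which gave unlike orders of the arrays, are shown by their first 30 bases. Positions are those given for the mm9 build.
Nrarp (chr2:25038038-25038097, + strand): ttttttgaatcttggttatgaacccaattt
Hey1 (chr3:8663432-8663491, - strand): gatttgggctctaaaagtattgttttacag
Hes1 (chr16:30067820-30067879, + strand): ttaaaatatcttcctttggggaagtttatt
Notch1, probe A_55_P2171897 (chr2:26319440-26319499, - strand): tcctgcagtggagggggccttgagacaggc
Notch1, probe A_55_P2047168 (chr2:26314630-26314689, - strand): ttgcttctttccaaaatcgaaaagaaagaa

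The values are processed signals, the background-subtracted brightness of a spot in arbitrary units, and differences are log2 ratios of 2 arrays after each was set relative to its 75th-percentile signal. That percentile was a signal of 535 for Aspp1-/-p53-/-, 580 for p53-/-, 597 for Aspp1-/- and 570 for WT. The scanner called 50.3% of probes well above background in Aspp1-/-p53-/-, 51.2% in p53-/-, 52.9% in Aspp1-/- and 53.2% in WT. This is also the order of the arrays for Hey1, Hes1 and Jag2 below, and the part of detection in their values was not tested. The targeted genes followed the labels: the log2 difference of Ppp1r13b was -2.51 in Aspp1-/-p53-/- against p53-/- and -2.62 in Aspp1-/- against WT, and that of Trp53 was -2.13 in Aspp1-/-p53-/- against Aspp1-/- and -2.18 in p53-/- against WT. All 10 markers of LSK cells on the list used here, Kit and Cd34 among them, were well above background on all 4 arrays. The arrays shared 1 slide, with p53-/- and Aspp1-/-p53-/- in its row 2 and the other two in row 1, so loss of p53, Mx1-Cre and slide row cannot be told apart. Fewer cells of a type and less RNA per cell cannot be told apart either.

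With 1 array per genotype, 2 arrays leave nothing to test, and a difference was called by size, at 2-fold or more. Beside it stands the scanner's own error for the spots (±), which is technical and does not cover variation between mice. If the dimmer spot did not clear background, only a bound is given, measured down to that spot's own value or to the array's lowest cleared signal, whichever was higher. Of the 10 genes, 7 were well above background on every array, Hey1 on 3 and Jag1 on 1, and Dtx1 was so on no array.

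Among the Notch genes the targets Nrarp and Hey1 passed the size rule, in the direction of lower signal, and no receptor, nor Rbpj, did so in any of the 5 comparisons. In Aspp1-/-p53-/- against WT, 2 of the 9 genes that could be compared were at least 2-fold lower (Nrarp and Hey1), where 2.38% of all 21625 genes or transcripts were. None was at least 2-fold higher, where 3.26% of all were. In p53-/- against WT 1 of 9 was lower (Hey1), with 1.43% of all lower, and none was higher, with 3.34% of all higher. In Aspp1-/- against WT 1 of 9 was lower (again Hey1), with 1.26% of all lower, and none was higher, with 1.27% of all higher. Against p53-/-, the Aspp1-/-p53-/- array had 1 of 8 genes lower (Nrarp), with 3.22% of all lower, and none higher, with 2.4% of all higher. Against Aspp1-/- it had 2 of 8 lower (Nrarp and Hey1), with 1.89% of all lower, and none higher, with 2.99% of all higher. With 8 or 9 genes a single gene already exceeds these shares, so a count of 1 is not set apart from the background. The counts of 2 include Hey1, whose spot on the Aspp1-/-p53-/- array was not well above background. Among 2153 genes within 0.5 of its mean log2 level, 4.18% were at least 2-fold lower in Aspp1-/-p53-/- against WT. With normexp background correction, described below, the counts of 2 became 1 against WT and 0 against Aspp1-/-. The comparisons share arrays and are not independent of each other.

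**Figure D1:**
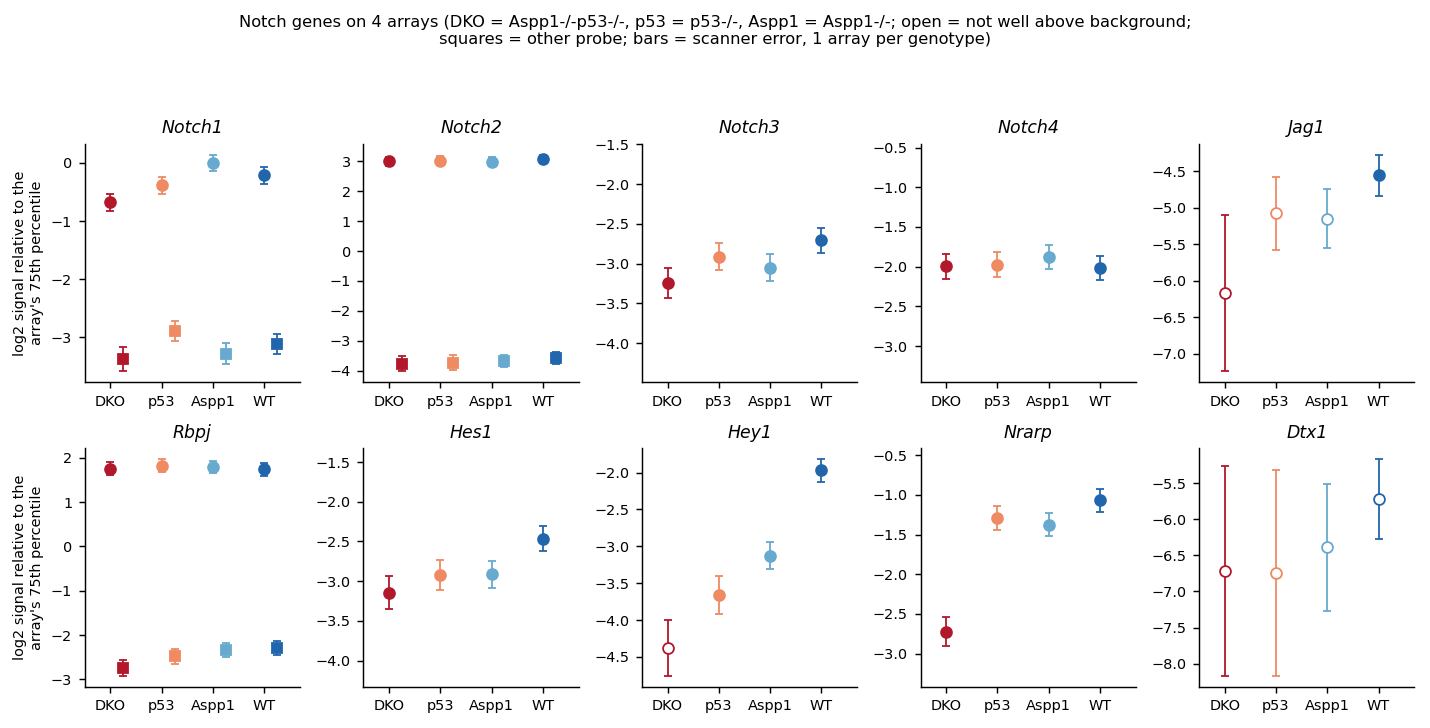
Log2 signal of each Notch gene relative to the array's 75th percentile (vertical axis, scaled per gene) on the Aspp1-/-p53-/- (DKO), p53-/- (p53), Aspp1-/- (Aspp1) and WT arrays, 1 array each; squares are a further probe, open points are not well above background, and bars are the scanner's error. Nrarp is low on the Aspp1-/-p53-/- array alone, Hey1 climbs from Aspp1-/-p53-/- through p53-/- and Aspp1-/- to WT, and the bright Notch2 and Rbpj probes are level.

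Nrarp had a processed signal of 81.2 in Aspp1-/-p53-/-, 236 in p53-/-, 230 in Aspp1-/- and 271 in WT cells. The Aspp1-/-p53-/- array stood alone and low, while the other 3 lay close together. Its log2 difference was -1.65 ± 0.24 in Aspp1-/-p53-/- against WT, or 3.14-fold lower, which ranked it 192nd from the lowest of 21625. It was -1.43 ± 0.24 against p53-/- and -1.35 ± 0.24 against Aspp1-/-. The single losses differed little from WT, at -0.23 ± 0.21 in p53-/- and -0.30 ± 0.21 in Aspp1-/-, both within 1.96 scanner errors of 0. With normexp background correction, an alternative that adds an offset to every spot, Nrarp was at -1.05 in Aspp1-/-p53-/- against WT, and at -0.83 against p53-/- and -0.77 against Aspp1-/-, both under 2-fold.

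The value with both genes lost was thus below the sum of the single losses, which came to -0.53. The non-additive difference of Nrarp, the effect of losing Aspp1 without p53 minus the effect of losing it with p53, was -1.12 ± 0.32. Over the 18995 genes well above background on all 4 arrays this quantity had a median of -0.02 and a standard deviation of 0.324, and 165 of them (0.869%), Nrarp included, were at or below the value of Nrarp. With normexp it was -0.55, and 292 of 18991 genes (1.54%) were at or below it. It is a single value from 4 arrays and was not tested.

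Hey1 had a signal of 25.8 in Aspp1-/-p53-/-, 46.0 in p53-/-, 68.2 in Aspp1-/- and 145 in WT cells. All 3 arrays with a lost gene were below WT, and on the Aspp1-/-p53-/- array the probe was not well above background. The log2 difference was -1.68 ± 0.30 in p53-/- against WT, or 3.21-fold lower, and -1.16 ± 0.24 in Aspp1-/- against WT, or 2.23-fold lower. In Aspp1-/-p53-/- cells it was -2.40 against WT as measured, or 5.29-fold lower, and -1.25 against Aspp1-/-. Against p53-/- it was -0.72, under the 2-fold rule. These 3 values stand as bounds, since the spot did not clear background. As its own value lay above the lowest signal called on that array, they are the measured differences and not strict limits. With normexp the differences against WT were -0.94 in Aspp1-/-p53-/-, -0.91 in p53-/- and -0.71 in Aspp1-/-, all under 2-fold. In Aspp1-/-p53-/- it was then -0.23 against Aspp1-/- and -0.03 against p53-/-. In the order of the arrays, Aspp1-/- and WT were apart by more than 1.96 scanner errors, whereas p53-/- and Aspp1-/- were not, nor were Aspp1-/-p53-/- and p53-/-.

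Hes1 gave the same order with smaller steps, at 60.5 in Aspp1-/-p53-/-, 76.7 in p53-/-, 79.2 in Aspp1-/- and 103 in WT cells. Its log2 difference was -0.68 ± 0.26 in Aspp1-/-p53-/- against WT, or 1.60-fold lower, beyond 1.96 scanner errors but under the 2-fold rule. Each single loss stood between WT and Aspp1-/-p53-/-, at -0.45 ± 0.25 in p53-/- and -0.45 ± 0.24 in Aspp1-/- against WT. Neither of these, nor any step between neighbours in the order, exceeded 1.96 scanner errors. With normexp Hes1 was at -0.26 in Aspp1-/-p53-/- against WT, which was within them, and at 0.04 against p53-/- and 0.05 against Aspp1-/-, so that its order was lost. Dtx1, which encodes an E3 ubiquitin ligase that acts on Notch signalling, had signals of 5.10 in Aspp1-/-p53-/-, 5.41 in p53-/-, 7.12 in Aspp1-/- and 10.8 in WT cells. None was well above background, so no difference is given.

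**Figure D2:**
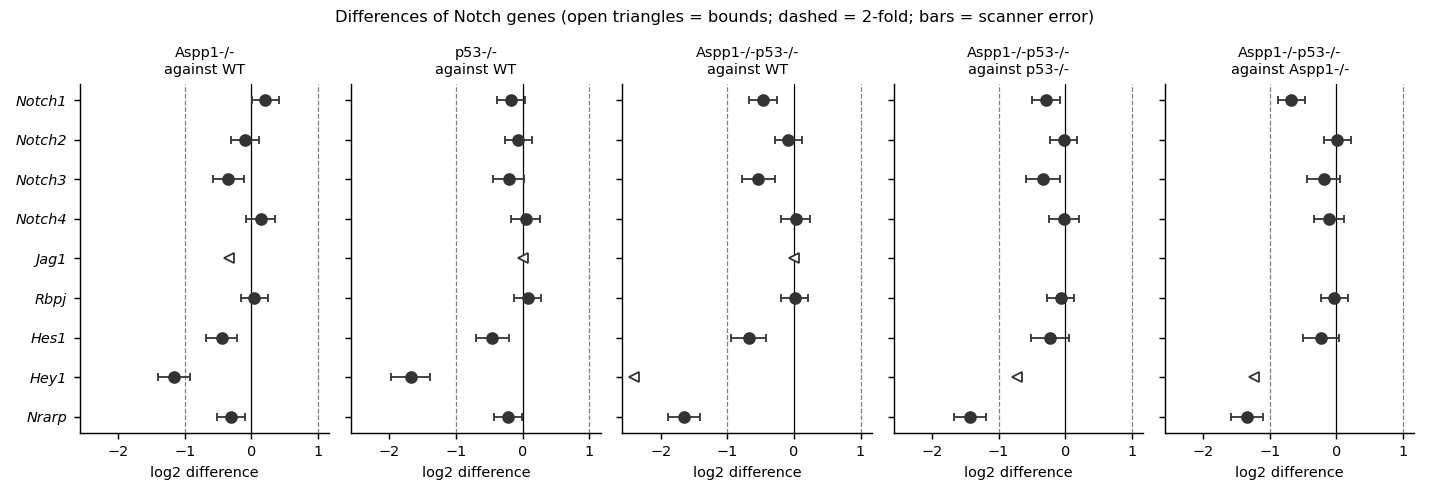
Log2 differences of 9 Notch genes (rows) in the 5 comparisons (panels); points are differences measured on both arrays with the scanner's error as bars, open triangles are bounds, and dashed lines mark 2-fold. Hey1 lies past the line in both single losses against WT, Nrarp only where Aspp1-/-p53-/- is on top, and the receptors and Rbpj stay within the lines.

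Among the receptors, Notch1, the receptor needed for T-lineage fate, was lowest with both genes lost. Its brighter probe read 335 in Aspp1-/-p53-/-, 444 in p53-/-, 597 in Aspp1-/- and 493 in WT cells. The log2 difference was -0.68 ± 0.21 in Aspp1-/-p53-/- against Aspp1-/- and -0.47 ± 0.21 against WT, both beyond 1.96 scanner errors, and -0.29 ± 0.21 against p53-/-, which was not. The single losses went opposite ways and within 1.96 scanner errors, at -0.18 in p53-/- and 0.21 in Aspp1-/- against WT. The dimmer Notch1 probe read 51.5 in Aspp1-/-p53-/-, 78.4 in p53-/-, 61.4 in Aspp1-/- and 65.9 in WT cells. Both probes had their lowest value on the Aspp1-/-p53-/- array but disagreed on the highest, which was Aspp1-/- by the brighter probe and p53-/- by the dimmer one. At -0.26 against WT and -0.10 against Aspp1-/-, the dimmer probe's differences in Aspp1-/-p53-/- cells were smaller than the brighter probe's, and at -0.49 against p53-/- its difference was larger, though within 1.96 scanner errors.

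Notch2, a receptor that also acts in marginal zone B cells, was level. Its brighter probe read 4290 in Aspp1-/-p53-/-, 4717 in p53-/-, 4747 in Aspp1-/- and 4844 in WT cells, and its log2 differences ran from -0.10 to 0.01 in the 5 comparisons. The dimmer probe read 39.3 in Aspp1-/-p53-/-, 43.3 in p53-/-, 46.3 in Aspp1-/- and 47.2 in WT cells. Notch4, best known from endothelium, was level too, at 134 in Aspp1-/-p53-/-, 147 in p53-/-, 162 in Aspp1-/- and 140 in WT cells, with differences from -0.11 to 0.14. Notch3, known from vascular smooth muscle and thymocytes, read 56.6 in Aspp1-/-p53-/-, 77.0 in p53-/-, 72.1 in Aspp1-/- and 87.4 in WT cells. Its difference of -0.54 ± 0.25 in Aspp1-/-p53-/- against WT was beyond 1.96 scanner errors, and at -0.21 in p53-/- and -0.34 in Aspp1-/- against WT the single losses were not. With normexp the difference of Notch3 in Aspp1-/-p53-/- against WT was -0.25, within 1.96 scanner errors.

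Jag1, a Notch ligand made by marrow stroma and endothelium among others, had a signal of 7.43 in Aspp1-/-p53-/-, 17.2 in p53-/-, 16.8 in Aspp1-/- and 24.3 in WT cells, and was well above background in WT only. The WT value was so near the detection limit that the bound was -0.33 for Aspp1-/- against WT and 0 for the other two genotypes against WT. Rbpj, through which all 4 receptors act, was level by its brighter probe, at 1807 in Aspp1-/-p53-/-, 2049 in p53-/-, 2063 in Aspp1-/- and 1907 in WT cells, and its differences lay between -0.07 and 0.08. Its dimmer probe read 80.0 in Aspp1-/-p53-/-, 104 in p53-/-, 118 in Aspp1-/- and 117 in WT cells, and was at -0.45 in Aspp1-/-p53-/- against WT, where the brighter one was at 0.01.

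For the 7 genes well above background on every array, the median log2 difference was -0.47 in Aspp1-/-p53-/-, -0.18 in p53-/- and -0.10 in Aspp1-/- against WT. It was -0.23 in Aspp1-/-p53-/- against p53-/- and -0.19 against Aspp1-/-. Over all 18995 such genes the medians were at most 0.02 in size. The median of -0.47 against WT is the value of the brighter Notch1 probe, where the dimmer one was at -0.26. With normexp, Nrarp was at -1.05, Hes1 at -0.26 and Notch3 at -0.25 in that comparison. The median thus depends on the background correction, and it was not recomputed. The number of the 7 genes below 0 was 5 in Aspp1-/-p53-/-, 5 in p53-/- and 4 in Aspp1-/- against WT, 7 in Aspp1-/-p53-/- against p53-/-, and 6 against Aspp1-/-. Of all 18995 genes well above background on every array, 8909 were below 0 in Aspp1-/-p53-/-, 8660 in p53-/- and 8992 in Aspp1-/- against WT. For Aspp1-/-p53-/-, 9438 were below 0 against p53-/- and 9656 against Aspp1-/-. Most values of the 7 genes were small, since only Nrarp passed 2-fold.

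**Figure D3:**
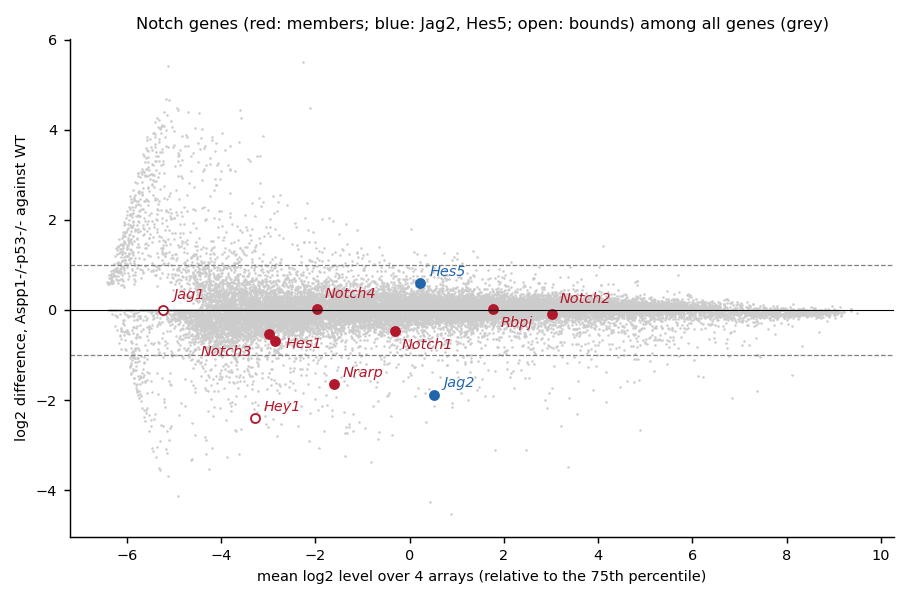
Log2 difference of Aspp1-/-p53-/- against WT (vertical) by the mean log2 level over the 4 arrays relative to the 75th percentile (horizontal) for all genes or transcripts (grey, bounds included), with the Notch genes in red, Jag2 and Hes5 in blue, bounds as open points and dashed lines at 2-fold. Nrarp at -1.65, Hey1 at -2.40 (open point) and Jag2 at -1.88 lie below the lower line, and the other named genes lie between the lines.

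The only test that the design allows takes the losses of both genes as additive over all 4 arrays, with 1 residual degree of freedom (limma with Benjamini-Hochberg adjustment over 18995 genes). It called no gene for either loss (0% of 18995), although 1642 genes for loss of Aspp1 and 2332 for loss of p53 had an unadjusted p under 0.05. The targeted genes themselves were not called, at a log2 effect of -2.57 with an adjusted p of 0.512 for Ppp1r13b on loss of Aspp1, and -2.15 with an adjusted p of 0.309 for Trp53 on loss of p53. For Nrarp, whose pattern is far from additive, the effect of loss of Aspp1 was -0.86 ± 0.32 (SE, limma adjusted p = 0.581) and that of loss of p53 was -0.79 ± 0.32 (limma adjusted p = 0.475). Hes1, whose pattern is closer to additive, had -0.34 ± 0.09 for each loss, with limma adjusted p-values of 0.575 for Aspp1 and 0.359 for p53. The limma adjusted p-values of the 4 receptors and Rbpj ranged from 0.393 to 0.967. Hey1, Jag1 and Dtx1 were not in the fit, since they were not well above background on all arrays.

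Of 42 other genes of the pathway (ligands, glycosyltransferases, proteases, ubiquitin ligases, cofactors and further targets), 37 could be compared. In Aspp1-/-p53-/- against WT 1 was at least 2-fold lower and none higher, and their median log2 difference was 0.03. In p53-/- against WT 1 was lower and none higher (median 0.02), and in Aspp1-/- against WT none was either (median -0.01). Against p53-/- and against Aspp1-/- the Aspp1-/-p53-/- array had 1 lower and none higher each, with a median of 0.02 in both. These shares are near the background of all genes, and the genes past the rule were Jag2 in 3 comparisons and Numb in 1. Of the Delta-type ligands, Dll1 and Dll4 were not well above background on any array, nor were the noncanonical ligand Dner and the targets Hey2 and Heyl.

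Jag2, a Notch ligand, had a signal of 377 in Aspp1-/-p53-/-, 702 in p53-/-, 1131 in Aspp1-/- and 1479 in WT cells. The 4 arrays fell in the same order as for Hey1, and each step was beyond 1.96 scanner errors. The log2 difference against WT was -1.88 ± 0.21 in Aspp1-/-p53-/-, -1.10 ± 0.20 in p53-/- and -0.45 ± 0.20 in Aspp1-/-. In Aspp1-/-p53-/- it was -0.78 ± 0.21 against p53-/- and -1.43 ± 0.21 against Aspp1-/-. In the additive model loss of p53 had an effect of -1.26 ± 0.11 on Jag2 (SE, limma adjusted p = 0.309) and loss of Aspp1 one of -0.62 ± 0.11 (limma adjusted p = 0.565). With normexp background correction the effect of loss of p53 was -1.18 with a limma adjusted p of 0.0362, and over all settings that p ranged from 0.0362 to 0.393. The Jag2 probe (chr12:114146887-114146946, mm9) lies on the chromosome of the targeted Ppp1r13b, whose probe starts 1.08 Mb away. The genetic background of the interval around the Aspp1-/- allele is not stated in the labels, and its part in the Jag2 values was not tested.

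Hes5, another repressor of the Hes family turned on by Notch, ran the other way, at 800 in Aspp1-/-p53-/-, 688 in p53-/-, 640 in Aspp1-/- and 564 in WT cells. Its log2 difference of 0.60 ± 0.20 in Aspp1-/-p53-/- against WT was 1.51-fold, under the 2-fold rule, and 0.48 ± 0.20 against Aspp1-/- was also beyond 1.96 scanner errors. At 0.26 in p53-/- and 0.12 in Aspp1-/- against WT, the single losses were within them. Thus Hes5 was highest on the Aspp1-/-p53-/- array, where Hey1 and Nrarp were lowest, as was Hes1 except with normexp. Numb, which encodes an inhibitor of Notch, was high on 1 array only, at 101 in Aspp1-/-p53-/-, 245 in p53-/-, 112 in Aspp1-/- and 124 in WT cells. This gave -1.16 ± 0.22 in Aspp1-/-p53-/- against p53-/- and 0.96 ± 0.21 in p53-/- against WT, just under 2-fold. With normexp these were -0.80 and 0.67, both under 2-fold.

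**Figure D4:**
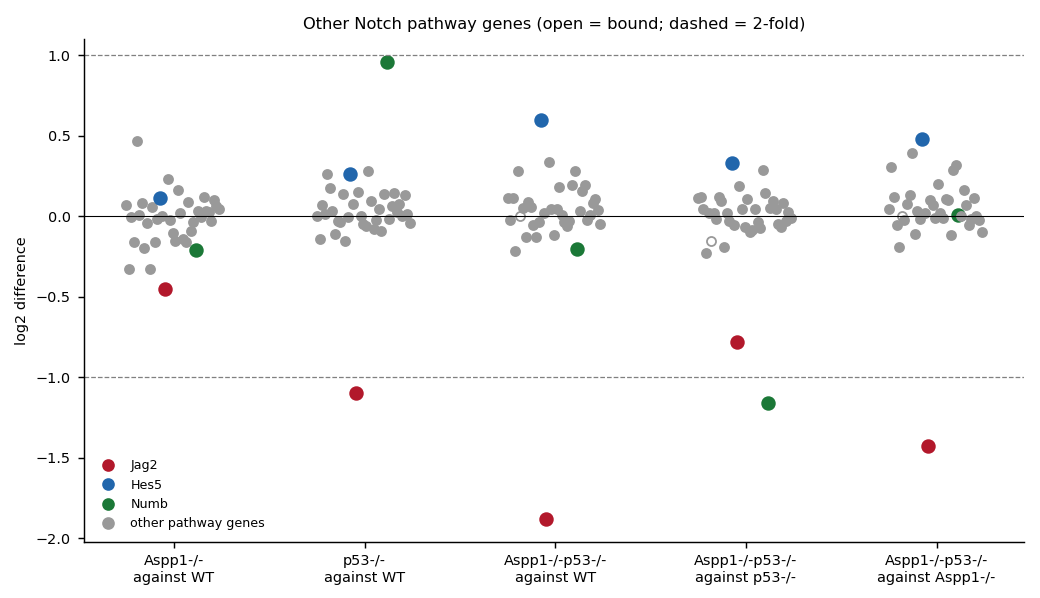
Log2 differences of the other Notch pathway genes (points) in the 5 comparisons (horizontal axis), with Jag2, Numb and Hes5 in colour, bounds as open points and dashed lines at 2-fold. Jag2 is below 0 in every comparison, Hes5 above 0 in every comparison, Numb stands out where the p53-/- array is used, and the grey points gather around 0.

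The further genes with the largest differences stayed under 2-fold by their brightest probe. Dlk1, a noncanonical ligand, was at 0.47 ± 0.21 in Aspp1-/- against WT, and its other probe, well above background on the Aspp1-/- and WT arrays only, was at 1.04 ± 0.37. Adam17, a protease that can cleave Notch, was at -0.33 in the same comparison. Maml3, a coactivator of the RBPJ complex, was at 0.28 in p53-/- against WT, with its other probes at -0.05 and -0.00. Kat2a, a histone acetyltransferase, was at 0.34 in Aspp1-/-p53-/- against WT, and Dtx4, a relative of Dtx1, at 0.39 in Aspp1-/-p53-/- against Aspp1-/-. Apart from Dlk1, these were within 1.96 scanner errors.

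Of 12 genes known as Notch targets in the T lineage, Myc, Gata3 and Tcf7 among them and Hes5 counted again, 11 could be compared where Aspp1-/-p53-/- was on top and 10 in the single losses. Il2ra, the interleukin-2 receptor alpha chain, was the one gene at least 2-fold higher, where Aspp1-/-p53-/- was on top, and none was lower. Of all genes, 3.26% were at least 2-fold higher and 2.38% lower in Aspp1-/-p53-/- against WT. The shares were 2.4% and 3.22% against p53-/-, and 2.99% and 1.89% against Aspp1-/-. A count of 1 among 11 is not set apart from them, and Il2ra rests on 1 spot of 1 probe. Its signal was 388 in Aspp1-/-p53-/-, against 6.82 in p53-/-, 8.79 in Aspp1-/- and 4.997 in WT cells, where the probe was not well above background. The log2 difference was thus bounded from below, at 4.08 against p53-/-, 4.42 against Aspp1-/- and 4.48 against WT. With normexp these values were 2.25 against p53-/-, 2.42 against Aspp1-/- and 2.39 against WT. The list's median difference in Aspp1-/-p53-/- against WT was 0.11, and Myc was at 0.45. Of 8 T cell markers, Cd3e, Cd4 and Lck were well above background on all 4 arrays, and Cd3d, Cd3g, Cd8a, Ptcra and Trac on none.

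The short promoter windows of Nrarp and Jag2, which were lower with both genes lost, and of Hes5, which was higher, are shown as the 250 bases before the start in RefSeq's GRCm38.p6 annotation. The core of the RBPJ site, TGGGAA, was searched on both strands, as TGGGAA or TTCCCA, and is in capitals.
Nrarp (chr2:25180508-25180757, + strand): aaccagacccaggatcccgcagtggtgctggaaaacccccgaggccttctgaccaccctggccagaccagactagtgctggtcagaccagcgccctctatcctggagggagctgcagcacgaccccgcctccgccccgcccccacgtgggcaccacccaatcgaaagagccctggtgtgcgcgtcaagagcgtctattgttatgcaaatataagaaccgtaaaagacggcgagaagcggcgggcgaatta
Jag2 (chr12:112929496-112929745, - strand): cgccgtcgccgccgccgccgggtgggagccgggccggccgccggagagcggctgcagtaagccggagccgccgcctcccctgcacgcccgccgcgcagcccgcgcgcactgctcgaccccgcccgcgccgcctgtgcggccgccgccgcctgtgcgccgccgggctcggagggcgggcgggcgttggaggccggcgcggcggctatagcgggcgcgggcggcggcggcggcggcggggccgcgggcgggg
Hes5 (chr4:154960673-154960922, + strand): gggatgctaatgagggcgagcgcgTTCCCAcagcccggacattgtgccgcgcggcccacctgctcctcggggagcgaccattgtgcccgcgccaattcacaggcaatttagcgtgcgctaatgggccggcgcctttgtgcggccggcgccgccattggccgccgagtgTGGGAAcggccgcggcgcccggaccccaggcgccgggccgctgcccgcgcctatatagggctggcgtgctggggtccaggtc
The Hes5 window held 2 matches, which begin 226 and 82 bases before the start, and those of Nrarp and Jag2 held none. Among all 32851 windows of this length 21.6% held a match. Windows were taken for 8 of the 10 Notch genes, 1 of them with a match (Rbpj), and for 33 of the 42 other pathway genes, 12 with a match. Windows on 1 chromosome were left out of these gene counts but not of the share over all windows. A gene can also have several windows and was counted if any held a match, so the gene counts cannot be set against that share. A match is a run of letters and no evidence of binding, and its absence covers only this window.

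Nrarp was the only one of the 10 genes that was well above background on all arrays and spanned at least 2-fold over them. The 5 genes with the most similar profile, by the root mean square difference over 4 arrays after each gene was centred on its mean, were taken from 18995. They were S100a8 (0.018), Lcn2 (0.057), S100a9 (0.072), the transcript ENSMUST00000126922 (0.079) and Itgb2l (0.080). S100a8, S100a9 and Lcn2 encode proteins of neutrophil granules or cytosol. In Aspp1-/-p53-/- against WT, S100a8 was at -1.70, Lcn2 at -1.70, S100a9 at -1.46 and Itgb2l at -1.77, and Nrarp at -1.65. Likeness over 4 arrays is a description with few points.

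**Figure D5:**
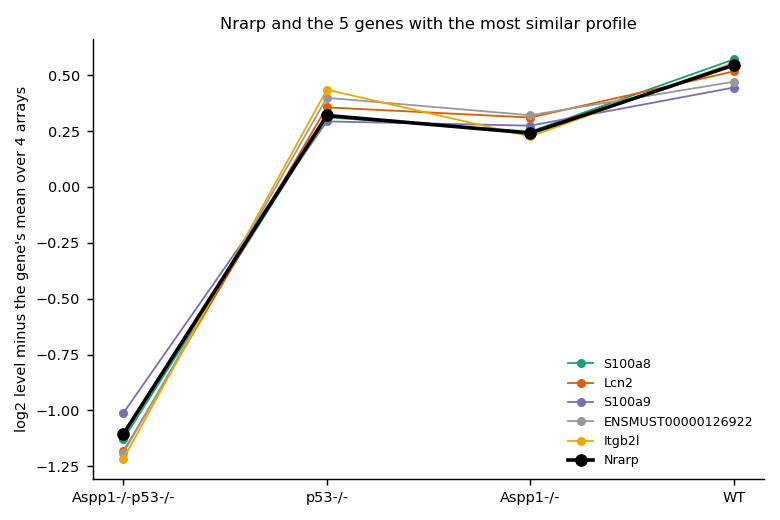
Log2 level minus the gene's mean over the 4 arrays (vertical) for Nrarp (black) and the 5 genes with the most similar profile on the Aspp1-/-p53-/-, p53-/-, Aspp1-/- and WT arrays (1 array each). All 6 lines are low on the Aspp1-/-p53-/- array and close together on the other 3.

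Some lists of other markers moved with these results and others did not. In Aspp1-/-p53-/- against WT, 5 B cell, 3 erythroid and 3 T cell markers could be compared, and none passed 2-fold. Their median log2 differences were 0.10 for B cell, 0.08 for erythroid and -0.22 for T cell markers. The granulocyte markers had a summed signal, relative to the 75th percentile, of 52.9 in Aspp1-/-p53-/-, 137 in p53-/-, 133 in Aspp1-/- and 153 in WT cells, and all 8 were well above background on every array. Of them 7 were at least 2-fold lower in Aspp1-/-p53-/- against WT, with a median of -1.73. This is the order of the arrays seen for Nrarp, and their part in its result was not tested. The immediate-early genes, which can respond to handling of cells, summed to 856 in Aspp1-/-p53-/-, 1395 in p53-/-, 1787 in Aspp1-/- and 1968 in WT cells, and 10 of 16 were at least 2-fold lower in Aspp1-/-p53-/- against WT (median -1.17). Their order is that of Hey1, Hes1 and Jag2, and their part in those results was not tested. Whether handling or the lost genes set the values of the immediate-early genes was not tested either.

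The endothelial and stromal markers summed to 7.71 in Aspp1-/-p53-/-, 9.18 in p53-/-, 8.46 in Aspp1-/- and 10.4 in WT cells. Of these 8, 6 were well above background on every array, and the defining endothelial marker Cdh5 and the stromal marker Col1a1 were so on none. Cxcl12 was at -2.20 ± 0.32 and Vcam1 at -2.05 ± 0.28 in Aspp1-/-p53-/- against WT, both known from marrow stroma. The other 4 detected markers were under 2-fold, with Lepr at -0.58, Kdr at -0.35, Emcn at -0.32 and Pecam1 at 0.05, and the median of the 6 was -0.46. The signal of Cxcl12 was 36.5 in Aspp1-/-p53-/-, 71.4 in p53-/-, 110 in Aspp1-/- and 178 in WT cells, the order of Hey1. That of Vcam1 was 39.9 in Aspp1-/-p53-/-, 112 in p53-/-, 108 in Aspp1-/- and 176 in WT cells. Thus Vcam1 and the sum of the list, with p53-/- above Aspp1-/-, did not share the order of Hey1. Whether such cells or their RNA had a part in the values of Hey1 or Jag1 was not tested. The summed LSK markers were close on all arrays, at 398 in Aspp1-/-p53-/-, 392 in p53-/-, 405 in Aspp1-/- and 397 in WT cells.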

How the data were processed

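Gene expression was measured on Agilent 1-colour (Cy3) mouse arrays, 1 per genotype. Agilent Feature Extraction (version 10.7.3.1) gave the processed intensity, with background subtracted, and placed probes on mm9, per the file headers. The deposited files hold as other values a detection flag of 0 or 1 for each spot, and an intensity error from the scanner. The deposited value table holds log2 values, which tracked the scanner differences with r = 1 after each probe was centred on its median; direction and centring were read from the values, and the authors' scaling constant is unknown here.

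Control spots and outlier-flagged spots were left out. Log2 processed signals were set relative to each array's 75th percentile. A gene was represented by its brightest probe well above background on at least 1 array, which gave 22781 genes or transcripts, 15253 of them named by RefSeq. The additive model used limma 3.58.1 in R 4.3.3 and was run on simulated data as a check of the code. That run does not measure its power on these arrays, where the targeted genes were called only with normexp. The Notch genes and all lists were chosen with earlier results of these data known. The naming rule took all 10 genes, the targeted genes, other pathway genes past 2-fold, the 3 largest per comparison, and the 5 profiles most like a member that spans 2-fold. In all, 7 other settings of the values and a 1.5-fold rule were tried. The number of arrays limits the precision.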

Additional observations from a re-analysis of the deposited data

Results flagged for a closer look

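For 5 probes of the Notch genes the loss of 1 gene had opposite signs with the other gene absent and present. The difference was not tested in any of them, since each value compares 2 arrays. For the brighter Notch1 probe the log2 effect of losing Aspp1 was -0.29 without p53 and 0.21 with p53. For the dimmer Notch1 probe the effect of losing p53 was -0.10 without Aspp1 and 0.23 with Aspp1. For Notch4 the effect of losing Aspp1 was -0.0185 without p53 and 0.14 with p53, and that of losing p53 was -0.11 without Aspp1 and 0.04 with Aspp1. For the brighter Rbpj probe the effect of losing Aspp1 was -0.0657 without p53 and 0.05 with p53, and that of losing p53 was -0.0340 without Aspp1 and 0.08 with Aspp1. For the brighter Notch2 probe the effect of losing p53 was 0.0116 without Aspp1 and -0.06 with Aspp1. Each effect was within 1.96 scanner errors of 0.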

How the results depend on the processing

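Across the 5 comparisons, the log2 differences of the Notch genes and of the pathway genes named above moved by less than the scanner's error in 569 of 591 recomputed values, and no difference past 2-fold changed sign. Smaller differences did, among them Hes1 in Aspp1-/-p53-/- against either single loss and Notch3 against Aspp1-/-, both with normexp. With normexp background correction, which adds an offset of 50 and so shrinks dim genes, the values of Nrarp, Hey1, Hes1, Notch3, Numb and Il2ra moved as given beside them, and the non-additive difference of Nrarp was -0.55, an alternative chosen after seeing the data. With the mean of a gene's probes, Notch1 in Aspp1-/-p53-/- against Aspp1-/- was -0.39, and 5 values of Rbpj, Dlk1 and Maml3 also moved by more than the scanner's error. With normexp, the number of Notch genes at least 2-fold lower became 1 for Aspp1-/-p53-/- and 0 for each single loss against WT. It became 0 for Aspp1-/-p53-/- against either single loss. For the other pathway genes it became 0 in Aspp1-/-p53-/- against p53-/-. Over all genes, normexp left 291 higher and 229 lower in Aspp1-/-p53-/-, 334 and 129 in p53-/-, and 118 and 96 in Aspp1-/- against WT, with 250 and 300 against p53-/-, and 292 and 179 against Aspp1-/-, for Aspp1-/-p53-/-. The additive model (limma) then called 1 gene for loss of Aspp1 (Ppp1r13b) and 34 for loss of p53, Trp53 and Jag2 among them and none of the 10 Notch genes.

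When probes had to clear background on every array, which drops Hey1, the Notch genes lower numbered 1 in Aspp1-/-p53-/-, 0 in p53-/- and 0 in Aspp1-/- against WT. With Aspp1-/-p53-/- set against Aspp1-/- the number was 1. All genes higher and lower were 158 and 273 in Aspp1-/-p53-/-, 105 and 103 in p53-/-, and 53 and 46 in Aspp1-/- against WT, with 100 and 172 against p53-/- and 118 and 182 against Aspp1-/-. At 1.5-fold they were 1350 and 1181 in Aspp1-/-p53-/-, 1182 and 696 in p53-/-, and 542 and 666 in Aspp1-/- against WT, with 841 and 1192 against p53-/- and 1200 and 948 against Aspp1-/-. At 1.5-fold 2 Notch genes and 2 other pathway genes were lower in Aspp1-/-p53-/- against p53-/-, and 1 other pathway gene was higher in Aspp1-/-p53-/- and in p53-/- against WT. Hes1 then also passed in Aspp1-/-p53-/- against WT, at 1.60-fold lower. The receptor Notch1 passed in Aspp1-/-p53-/- against Aspp1-/-, at 1.60-fold lower by its brighter probe. Limma adjusted p-values of Nrarp ranged from 0.451 to 0.667 for loss of Aspp1 and from 0.248 to 0.518 for loss of p53 over the alternatives. No paired analysis was possible because each genotype had 1 array, and for the same reason none could be left out. Low signal over background limits Hey1, Jag1 and Dtx1, and Nrarp rests on 1 spot of 1 probe.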
